A study of Arabidopsis thaliana with 32 samples.

Results

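The response to 10 h of dexamethasone was read from 4 of the 32 arrays of a time course in Arabidopsis thaliana callus, namely the 4 whose labels give 10 h of treatment. Every sample carried 35S:LFY-GR, a fusion of the transcription factor LEAFY (LFY) with the glucocorticoid receptor, driven by the 35S promoter, which is active in most tissues. The callus was derived from root explants and received either a solution with dexamethasone or a control solution. Each array was a 2-colour cDNA array, enriched for transcripts of flowers, that held dexamethasone-treated and control RNA of the same time point, so each value is a comparison within an array. The other 28 arrays had 4 at each of 0, 2, 4, 6, 8, 12 and 22 h and were used to estimate the spread and to compare 10 h with the rest. All samples carry the transgene, so an effect of the steroid without the fusion protein cannot be told apart from that of LFY-GR. Channel 2 held the dexamethasone RNA on replicates 1 and 3 and the control RNA on replicates 2 and 4. Whether these 4 arrays stand for 4 separate treated and control RNA samples, or for fewer with the dyes exchanged, is not given in the labels. P-values thus rest on the spread from array to array, and this spread may be technical.

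LFY is a plant-specific transcription factor that turns a shoot meristem into a floral meristem and switches on floral homeotic genes such as APETALA1 and AGAMOUS. In a glucocorticoid receptor fusion the protein is held in the cytoplasm until the steroid binds, and it then enters the nucleus. A series of times after the steroid follows both genes that LFY binds and genes that change later through other regulators, and callus allows this outside a flower.

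The features are known by plate positions only, and of the 10816 identifiers 0 were found among the genes of assembly TAIR10.1. LFY, its known targets and markers of callus, root or flower could therefore not be looked up, and the results are given as counts and sizes of feature groups, with 4 features named by position. Several features can hold clones of the same transcript, so a count of features is not a count of genes. Values are log2 ratios, made from the deposited log10 ratios with replicates 2 and 4 turned in sign. With channel 2 divided by channel 1 in the deposited ratio, a positive value means more RNA in dexamethasone than in control callus. That order of the channels is likely by convention, but the labels do not state it, and with the other order every sign below exchanges. A feature was called when its adjusted p was under 0.05 in limma, adjusted by Benjamini-Hochberg over all features tested.

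The 4 arrays at 10 h had values for 10802, 10806, 10739 and 10746 features. Values at the limits of the scale, log10 ratios of -2 and 2, were set to missing. Replicates 1 and 2 had 261 and 203 values at the upper limit, and replicates 3 and 4 had 18 and 26. At the lower limit the 4 arrays held 5, 5, 41 and 29 values. Replicates 1 and 2 carried opposite dye orientations, and of 286 features that either of them put at the upper limit, 178 were there on both, before the sign was turned. With limit values missing, 10729 features had at least 1 value per orientation and were tested, 10405 of them with values on all 4 arrays. The median absolute deviation of the log2 ratios was 0.351, 0.373, 0.238 and 0.303 on replicates 1 to 4, so replicate 3 had the narrowest spread.

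Across all features the 4 turned arrays were only weakly alike. Pearson correlations ran from 0.0372 between replicates 2 and 4 to 0.284 between replicates 1 and 3, with a mean of 0.156 over the 6 pairs. With limit values kept, the mean was -0.0812, and replicates 1 and 2 correlated at -0.641. Spearman correlations ran from -0.0711 to 0.272. Across features that had been called at another time point on the other 28 arrays, the 10 h arrays were much more alike. Over these 968 to 978 features Pearson's r lay between 0.614 and 0.797. These correlations are across features, which are not independent replicates, and all pairs share the array design and each orientation its dye.

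At 10 h, 341 features (3.18% of those tested) had a ratio that differed from 0, 242 with a positive ratio (2.26%) and 99 with a negative one (0.923%). With replicates 1 and 2, and 3 and 4, each averaged as if they were dye swaps of 1 RNA pair, 177 features were called, 141 positive and 36 negative. At 0 h, measured in the same way, 9 features (0.084%) were called. The median absolute deviation there was 0.175, 0.165, 0.369 and 0.271 on replicates 1 to 4, so replicates 1 and 2 were narrower than at 10 h. The fit used 1 spread per feature for all times, and the part of this in the counts was not tested. Of the 242 positive features, 241 had values on all 4 arrays, and 235 of these were above 0 on all 4. Of the 99 negative features, 96 had all 4 values, and 93 of these were below 0 on all 4. Among all features with 4 values, 6.74% were positive and 6.51% negative on every array. The call used the same values, so these counts describe the called features and do not test them.

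The positive side also held the larger ratios. Its median was 0.74, with the middle of the features between 0.56 and 1.21 (quartiles), while the negative side had a median of -0.57 and quartiles of -0.75 and -0.47. In all, 77 positive features (31.8%) and 9 negative features (9.09%) lay beyond 2-fold. Beyond 4-fold there were 20 positive and 2 negative features. Both of these negative features had a value on at most 3 arrays, and the more extreme of them, at -4.57, rested on 2 arrays. The smallest ratios that were called were 0.25 and -0.28, against a median SE of 0.13. The last feature called had a ratio of 0.37 (adjusted p = 0.0499, limma), and the next in order, which was not called, had one of 0.75 with a larger SE of 0.21 (adjusted p = 0.0513, limma).

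**Figure D1:**
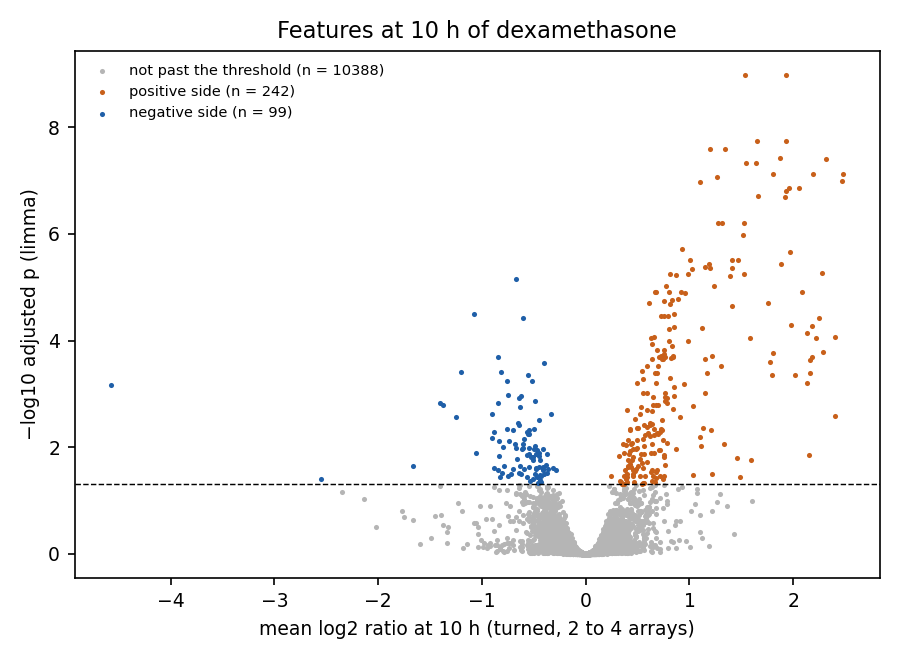
Mean log2 ratio at 10 h (x axis) against −log10 of the limma adjusted p (y axis), 1 point per feature tested, with a dashed line at the threshold of 0.05. The 242 positive features reach 2.48, while most of the 99 negative features lie between 0 and -1 and only 9 lie beyond 2-fold.

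By array, the median of the 242 positive features was 0.88, 0.78, 0.66 and 0.77 on replicates 1 to 4. The features were chosen on these 4 arrays, so the medians are a description. The median of the 99 negative features was -0.73, -0.56, -0.46 and -0.53. Replicate 1 was the lowest of the 4 there, and without it the negative side fell to 37 features while the positive side held 177. Without replicate 2, 3 or 4 the negative side held 88, 89 and 95 features. Fitted on the 4 arrays at 10 h alone, limma called 68 positive and 1 negative feature.

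Replicates 1 and 2, and replicates 3 and 4, each hold both dye orientations and could be exchanges of the same RNA pair, so 1 pair was used to choose features and the other to read them. The 100 most positive features on replicates 1 and 2 (median 1.59) had medians of 1.11 and 1.17 on replicates 3 and 4, and 64 of the 100 were positive on both. The 100 most positive on replicates 3 and 4 (median 1.41) had medians of 1.36 and 1.301 on replicates 1 and 2, and 82 were positive on both. Among all features with 4 values, 24.2% were positive on both replicates 3 and 4, and 20.8% on both replicates 1 and 2. These values depended on how limit values were treated. With limit values kept, the 100 most positive on replicates 1 and 2 had medians of -0.21 and 0.19 on replicates 3 and 4, with 25 positive on both, so the sign turned on replicate 3. The 100 chosen on replicates 3 and 4 then had medians of 1.48 and 1.16 on replicates 1 and 2, with 69 positive on both. Over the 4 arrays read, the mean of the medians was 1.23 with limit values missing and 0.66 with them kept, and it was 0.61 for 200 features in place of 100.

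The negative side gave smaller medians on the arrays read. The 100 most negative features on replicates 1 and 2 (median -1.02) had medians of -0.29 and -0.06 on replicates 3 and 4, with 52 negative on both against 23.6% of all features. The 100 most negative on replicates 3 and 4 (median -0.85) had medians of -0.16 and 0.05 on replicates 1 and 2, with 27 negative on both against 23.0% of all features. With limit values kept, the same medians were -0.305 and -0.11 on replicates 3 and 4, and 0.17 and -0.05 on replicates 1 and 2. With them missing, the medians over the 4 arrays read were 1.23 ± 0.12 (SD, n = 4) for the positive and -0.12 ± 0.15 for the negative choice. Per side these medians come from 2 lists, each read on 2 arrays that may share RNA. They are not 4 independent readings, and the SDs are a description. The difference between the sides was not tested.

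**Figure D2:**
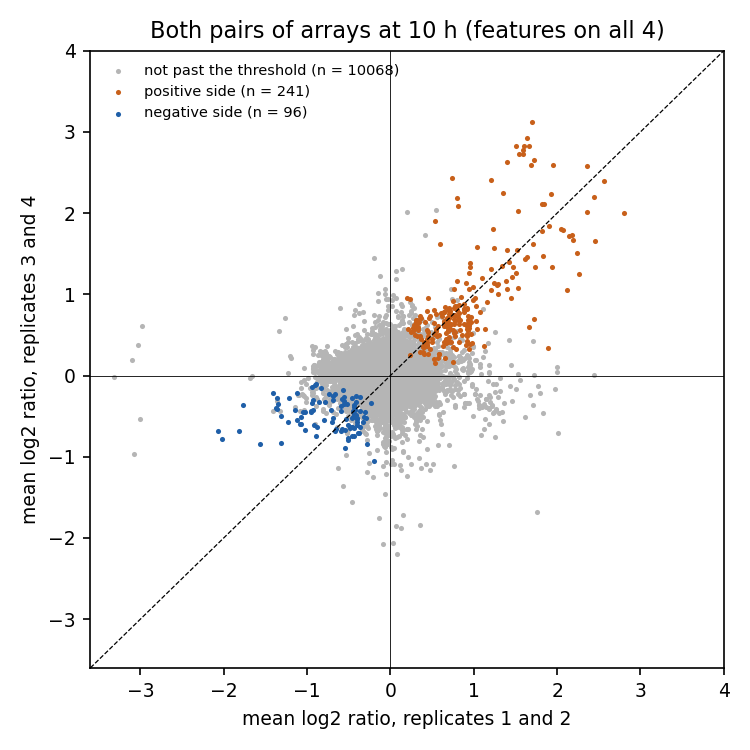
Mean log2 ratio on replicates 1 and 2 (x axis) against that on replicates 3 and 4 (y axis) at 10 h, 1 point per feature with values on all 4 arrays, with the line of equality dashed. The 241 positive features spread along the line, and the 6 negative features beyond 2-fold lie at lower values on replicates 1 and 2 than on 3 and 4.

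The pairs of arrays also differed in size for single features. Of the 76 positive features beyond 2-fold with all 4 values, 25 had both replicates 3 and 4 above both replicates 1 and 2, 16 had both below, and 35 had neither. Over all features with 4 values the first arrangement held for 15.01% and the second for 13.3%. All 6 negative features beyond 2-fold with 4 values had both replicates 1 and 2 below both replicates 3 and 4.

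Feature GP005B2 had the most positive ratio among features with the same sign on all 4 arrays. The named features were chosen by their ratios at 10 h, so their differences from other times lean towards a larger size at 10 h. Its log2 ratios at 10 h were 2.17, 2.96, 2.05 and 2.74 on replicates 1 to 4. All 4 lay above 2, and the mean of 2.48 (SE 0.24, adjusted p = 7.64e-08, limma) is a 5.58-fold ratio. At the start it stood at -0.02 ± 0.45 (SD, n = 4), after 2 h at 0.46 ± 0.99 and after 4 h at 0.74 ± 0.76, and it was called at none of these times. Part of this spread followed the dye orientation. At 2 h replicates 1 and 3 stood at -0.09 and -0.56, and replicates 2 and 4 at 0.82 and 1.68. At 4 h these were 0.15 and 0.11 against 1.03 and 1.68. GP005B2 was called at 6 h, at 2.09 ± 0.43 (adjusted p = 3.90e-06), and at 8 h, at 1.54 ± 1.13 over the 3 arrays with a value (adjusted p = 0.000382, limma). That 8 h mean is not adjusted for orientation, while the p is. The ratio at 10 h was higher than at 0, 2 and 4 h, by 2.503 (adjusted p = 4.84e-05), 2.02 (adjusted p = 0.00181) and 1.74 (adjusted p = 0.0154, limma). It was 2.97 ± 0.61 at 12 h and 3.82 ± 0.37 at 22 h, and the differences of 10 h from these, -0.49 and -1.34, did not pass (adjusted p = 0.99995 and 0.112). Nor did those from 6 and 8 h, 0.39 and 0.81 (adjusted p = 0.959 and 0.874, limma).

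Feature GP096G7 reached nearly the same ratio along another course. Its values at 10 h were 2.26, 2.45, 2.57 and 2.603, which is the tightest set of the 4 named features, with a mean of 2.47 (SE 0.25, adjusted p = 1.01e-07, limma). It was already called at 2 h, at 1.26 ± 0.50 (SD, n = 4, adjusted p = 0.0146), and stayed at 1.27 ± 0.47 after 4 h, 1.13 ± 0.69 after 6 h and 1.27 ± 0.32 after 8 h. It then stood at 1.84 ± 0.54 (12 h) and 2.54 ± 0.82 (22 h). All 4 arrays at 10 h lay above the highest at 8 h, 1.70. The feature was chosen for its high ratio at 10 h, so this and the next comparison are biased upwards and are a description. The ratio at 10 h exceeded the mean of 8 and 12 h by 0.92 (SE 0.301, unadjusted p = 0.00508), which did not pass over all features (adjusted p = 0.99998). Its difference from 0 h, 2.47, was called (adjusted p = 7.48e-05, limma), and its differences from 2, 4, 6, 8, 12 and 22 h were not.

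Feature GP001B2 was the most negative with the same sign on all 4 arrays. Its values at 10 h were -2.32, -1.72, -0.74 and -0.83, so replicates 1 and 2 lay well below replicates 3 and 4. The mean of -1.403 (SE 0.27, adjusted p = 0.00147, limma) did not stay past the threshold with both pairs averaged (adjusted p = 0.116) or on replicates 3 and 4 alone, where it was -0.78 (adjusted p = 0.571). Its ratio was -0.99 ± 0.61 (SD, n = 4) after 2 h, -1.36 ± 0.61 after 4 h and -0.46 ± 0.86 after 22 h, where replicates 3 and 4 were above 0. GP001B2 was also called at 4, 6 and 8 h (adjusted p = 0.00528, 0.0116 and 0.0194, limma), but not at 2, 12 or 22 h. Feature GP136D9 had values of -2.299, -1.84, -0.46 and -0.92, with the same split between the pairs. Its mean was -1.38 (SE 0.27, adjusted p = 0.00160, limma), which became -0.69 on replicates 3 and 4 alone (adjusted p = 0.662) and lost its call without replicate 1 (-1.06, adjusted p = 0.0577). At 22 h its replicates stood at -1.82, -1.77, -0.44 and -0.45, again lower on 1 and 2. GP136D9 was also called at 4, 12 and 22 h (adjusted p = 0.0293, 0.0145 and 0.00806, limma), but not at 2, 6 or 8 h. The difference from 0 h was not called for either negative feature (-1.21 and -1.16, adjusted p = 0.186 and 0.223).

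**Figure D3:**
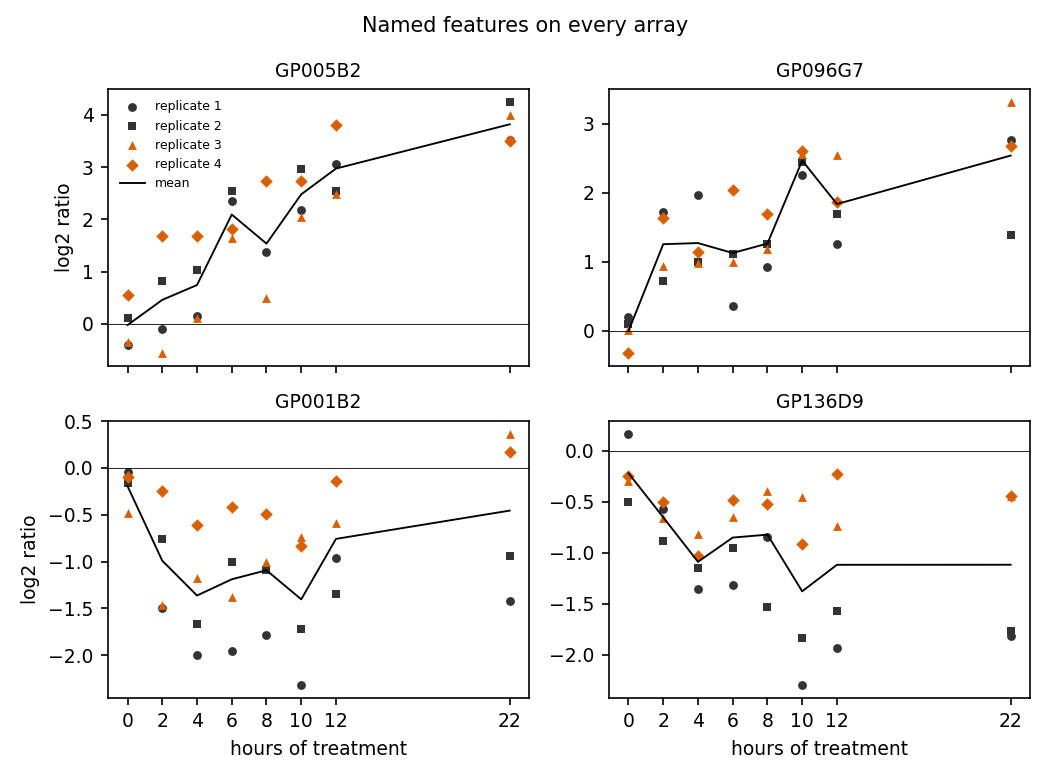
Log2 ratio (y axis) against hours of treatment (x axis) for the 4 named features, with replicates 1 and 2 in grey, replicates 3 and 4 in orange and the mean over arrays as a line. GP005B2 climbs to 3.82 at 22 h, GP096G7 stays between 1.13 and 1.27 from 2 to 8 h and stands at 2.47 at 10 h, and both negative features lie lower on replicates 1 and 2 at 10 h.

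The features most like these 4 were sought by Pearson's r over the 28 arrays of the other time points, among features with a value on all 28. GP005B2 lacked a value and was not compared. For GP096G7, 18 of 9842 features had an r over 0.8, of which 17 were called on the positive side at 10 h (2.26% of all features tested), and the median 10 h ratio of the 18 was 2.15. The highest r was 0.904 and the tenth 0.869. For GP001B2, 2 features passed 0.8, with the highest at 0.953, and both were called on the negative side at 10 h (0.923% of all features tested). For GP136D9, 4 features passed 0.8, with the highest at 0.843, and 1 of them was called on the negative side. These values are a description, since the features compared share arrays, dyes and times, and whether they are clones of the same transcript could not be looked up.

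The sets called at 10 h were followed on the other arrays, which entered the choice only through the dye term and the spread of each feature. They are not fully separate readings. Differences between the arrays of 1 orientation, replicate 1 minus 3 and 2 minus 4, were free of time and orientation means. They correlated with those at 10 h by 0.165 to 0.373 at 6, 8, 12 and 22 h. At 0, 2 and 4 h they did so by 0.00335 to 0.201. Taken array by array, deviations of same-numbered arrays correlated by 0.124 to 0.553 and by 0.0244 to 0.326 at these times. At the start, the 242 positive features had a median per array of 0.01 ± 0.03 (SD over the 4 arrays). After 2 h it was 0.25 ± 0.05, after 4 h 0.38 ± 0.06, after 6 h 0.58 ± 0.04 and after 8 h 0.65 ± 0.15. After 12 h it was 0.73 ± 0.05 and after 22 h 0.90 ± 0.07, with 0.77 ± 0.09 at 10 h itself, where the choice was made. The positive set was thus raised on every array from 2 h on, while the median of all features ran from -0.0454 to 0.0522 over the 32 arrays. The 99 negative features had a median of 0.00 ± 0.05 at the start. After 2 h it was -0.29 ± 0.09, after 4 h -0.28 ± 0.05, after 6 h -0.38 ± 0.14 and after 8 h -0.35 ± 0.08. After 12 and 22 h they stood at -0.40 ± 0.13 and -0.41 ± 0.15, against -0.57 ± 0.11 at 10 h, where they were chosen.

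The 77 positive features beyond 2-fold had a higher median than the 242 at every time from 2 h on. It was -0.04 ± 0.03 at the start (SD over 4 arrays), 0.44 ± 0.11 after 2 h, 0.68 ± 0.04 after 4 h, 0.904 ± 0.063 after 6 h and 1.13 ± 0.32 after 8 h. It was 1.63 ± 0.39 after 12 h and 2.28 ± 0.51 after 22 h. Of the 20 beyond 4-fold, 19 had all 4 values at 10 h, which ran from 1.16 to 3.26, so all 19 were above 2-fold on every array. The median of these 20 features was already 1.17 at 2 h and stood at 1.29, 1.18 and 1.44 at 4, 6 and 8 h, then at 2.25 at 12 h and 2.49 at 22 h. Of the 20, 1 was called after 2 h (0.14% of features tested were positive and called), 11 after 4 h (0.951%), 10 after 6 h (2.13%), 18 after 8 h (2.31%) and 19 each after 12 h (2.36%) and 22 h (4.23%).

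**Figure D4:**
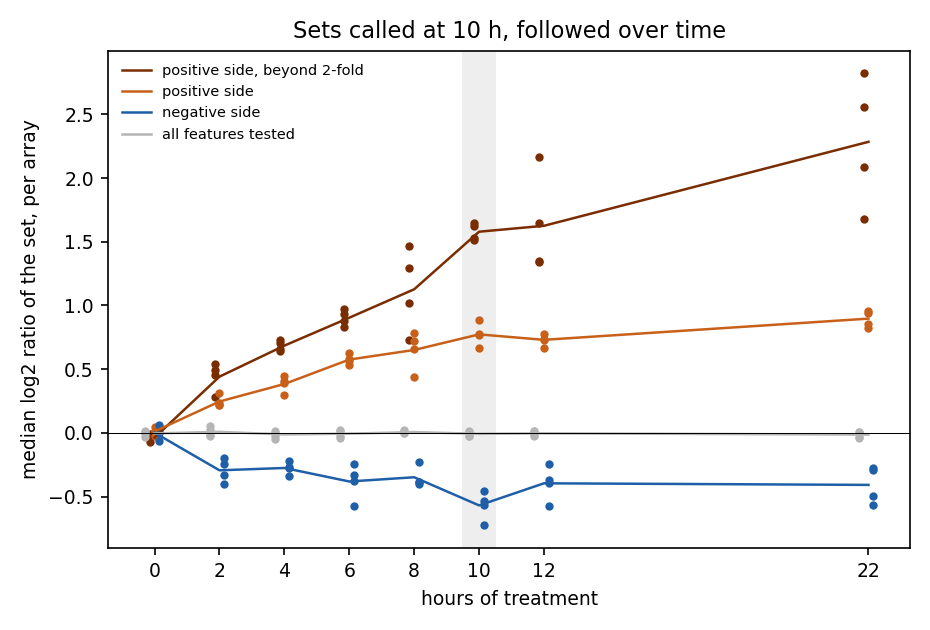
Median log2 ratio of the features called at 10 h (y axis) against hours of treatment (x axis), 1 point per array and lines through the means of 4 arrays, for the 242 positive features, the 77 of these beyond 2-fold, the 99 negative features and all features tested. The set beyond 2-fold goes from -0.04 at 0 h to 2.28 at 22 h, and the points at 10 h (shaded) chose the sets.

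The choice was also made the other way, with features called on the 28 other arrays and then read at 10 h. The same limit holds here, since same-numbered arrays share deviations. The 253 features called on the positive side at 12 h (2.36% of features tested) had medians of 0.87, 0.69, 0.65 and 0.72 on the 10 h arrays, and 220 of the 252 with 4 values (87.3%) were positive on all 4. Of those called on the positive side at 8 h (2.3% of features tested), 201 of 246 (81.7%) were positive on all 4 arrays at 10 h, and of those called at 22 h (4.28%), 276 of 459 (60.1%). All 13 features called on the positive side at 2 h (0.121%) were positive on all 4, with a median of 1.08 ± 0.19 (SD, n = 4 arrays). On the negative side, the 65 features called at 12 h (0.606%) had medians of -0.62, -0.52, -0.40 and -0.45 on the 10 h arrays, and 42 of the 64 with 4 values (65.6%) were negative on all 4. From the other time points 45.5% to 73.3% were. All of these shares stand above the 6.74% and 6.51% of all features.

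With all 32 arrays in the fit, the positive list at 10 h was set against that of each other time, whose lengths differ. The 195 features shared with the 253 called at 12 h (2.36% of those tested) were 80.6% of the 10 h list and 77.1% of the 12 h list. With 8 h (248 called, 2.31%) 175 were shared, 72.3% of the 10 h list and 70.6% of the 8 h list. With 22 h (454 called, 4.23%) 204 were shared, 84.3% of the 10 h list and 44.9% of the 22 h list. All 15 features called on the positive side at 2 h (0.14% of those tested) were also called at 10 h. The negative lists had fewer features in common. They were 8 of the 15 called at 2 h (0.14%), 26 of the 78 at 4 h (0.727%), 27 of the 112 at 6 h (1.04%) and 28 of the 88 at 8 h (0.821%). There were 30 features in common with the 59 of 12 h (0.55%), or 30.3% of the 10 h list and 50.8% of the other, and 47 with the 174 of 22 h (1.62%), or 47.5% and 27.0%. No feature was called on opposite sides at 10 h and at another time. No array belongs to more than 1 time point, although each feature has a single dye term and a single spread for all of them. Same-numbered arrays of different times also share deviations, and the part of this in the overlaps was not tested.

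**Figure D5:**
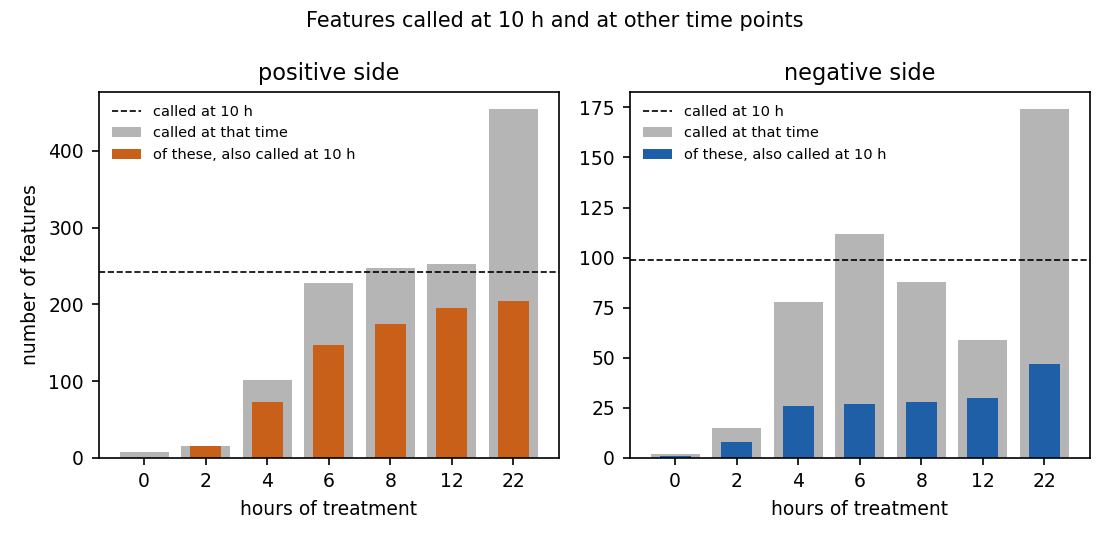
Number of features called at each other time point (grey bars), the number of these also called at 10 h on the same side (coloured bars) and the number called at 10 h (dashed line), against hours of treatment, for the positive side (left) and the negative side (right). The positive overlap goes from 15 features at 2 h to 204 at 22 h, and the negative one from 8 to 47.

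Only 12 of the 242 positive features (4.96%) were called at 10 h and at no other time from 2 to 22 h, against 27 of the 99 negative features (27.3%). The median ratio of the 12 was 0.48 at 10 h, with 0.21 at 8 h and 0.22 at 12 h, and that of the 27 was -0.51, with -0.15 and -0.24. In the limma test of 10 h against the mean of 8 and 12 h, 0 features passed, and 356 (3.32%) had an unadjusted p under 0.05. At the other end, 15 positive and 4 negative features of the 10 h lists were called on the same side at all 6 other times, and 175 positive and 28 negative features at 3 or more.

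The ratio at 10 h was then compared with that at each other time. Against 0 h, 135 features (1.26%) differed, 111 with 10 h above (1.03%) and 24 with 10 h below (0.224%). The 111 had a median per array of 1.16 ± 0.04 at 10 h and -0.02 ± 0.02 at 0 h (SD, n = 4). The arrays of both times also chose these features, so such medians are a description, here and for the other times below. The 24 had medians of -0.45 ± 0.08 and 0.201 ± 0.059. Their ratios at 0 h were above 0 for 23 of the 24, and 16 of the 24 were called on the negative side at 10 h, so the ratios at both times entered this difference. With the arrays of each pair averaged, 51 and 1 of such features were called.

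Against 2 h, 41 features were higher at 10 h (0.382%) and 1 was lower (0.00932%). The 41 went from a median of 0.15 ± 0.06 at 2 h to 1.37 ± 0.04 at 10 h (SD, n = 4 arrays). Against 4 h, 30 were higher (0.28%), with medians of 0.299 ± 0.090 and 1.49 ± 0.11, and 1 was lower, the feature with 2 values at 10 h named above for its ratio of -4.57. The count against 4 h depended on single arrays. From 31 features (0.289%) it went to 11, 16 and 20 without replicate 1, 2 or 3 at 10 h, and to 1 without both replicates 1 and 2.

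Against 22 h, 33 features were lower at 10 h (0.308%) and 0 were higher (limma, with an unadjusted p under 0.05 for 594 in either direction). Their median was 1.28 ± 0.07 at 10 h and 2.59 ± 0.27 at 22 h (SD, n = 4 arrays), and 32 of the 33 had a ratio above 0 at 10 h, 28 of them called there on the positive side. The median of these 33 features averaged 0.13 ± 0.09 at 2 h, 0.28 ± 0.08 at 4 h and 1.49 ± 0.30 at 12 h (SD, n = 4 arrays each), given as a description. With the replicate number as a block, 65 features were lower at 10 h than at 22 h, and with arrays scaled to a common spread 9 were.

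Against 6, 8 and 12 h no difference was called. Between 10 and 12 h, 0 features passed in limma, and 240 (2.24%) had an unadjusted p under 0.05. The middle 95% of the differences lay between -0.41 and 0.43, with a median SE of 0.19. Between 10 and 8 h it called 0, with 610 (5.69%) unadjusted and a smallest adjusted p of 0.0672. Between 10 and 6 h it called 0, with 671 (6.25%) unadjusted, a smallest adjusted p of 0.0593 and 5 features called with the replicate number as a block. Differences well above these SEs could also go uncalled with 4 arrays per time. In the comparisons that called features, the smallest called difference was 0.49 in size, against 0 h. GP096G7 differed from 6 h by 1.34 (SE 0.35) and was not called (adjusted p = 0.461, limma). The counts of 0 thus do not show that the ratios were equal.

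The called features fell on most plates, but the positive ones were not spread evenly. The identifiers fell into 114 plates, of which 97 held at least 1 positive and 66 at least 1 negative feature. Plate 5 held the most positive features, 10 of 94 tested (10.6%), followed by plate 32 with 9 of 95 (9.47%), against 2.26% of all features and a median of 2 per plate. The most negative features on 1 plate were 4. Of 217 positive features with a tested feature in the next column of the same row, 19 (8.76%) had a positive feature there, against 2.26% of all features. Of 91 such negative features, 1 (1.099%) had a negative feature there, against 0.923% of all features. What the clones on a plate have in common is not given in the sources used here.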

How the data were processed

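RNA of dexamethasone-treated and control callus was compared on 2-colour cDNA arrays, 4 per time point at 8 time points. The deposited values are log10 ratios, 1 per feature and array, analysed by the authors with Rosetta Resolver per the labels; for the dyes, background correction, normalization and numerator nothing is given in the sources used here, and the log10 scale was inferred from the values. No scanner signals were used, so depth is expressed only by the number of arrays. Ratios were multiplied by 3.32 to give log2, replicates 2 and 4 were turned, and values with an absolute log10 of 2 or more were set to missing. A feature entered the fit with 1 or more values per orientation at 10 h. A linear model with 1 coefficient per time point and a dye term was fitted to all 32 arrays (lmFit and eBayes, limma 3.58.1, R 4.3.3). Tests were two-sided, of the 10 h ratio against 0, of 10 h minus each other time and of 10 h minus the mean of 8 and 12 h, with Benjamini-Hochberg adjustment and a threshold of 0.05. All adjusted p-values are from limma. The script was tested on simulated data.

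The 2 most positive and 2 most negative called features with 4 values of the same sign were named. The features, groups and tests were chosen with earlier results of these data known. Gene lists and cell type markers could not be used for want of gene names. Replicate numbers run through all time points. Differences between the arrays of 1 orientation at 10 h, replicate 1 minus 3 and 2 minus 4, were correlated with those of other times. With those at 6, 8, 12 and 22 h they correlated by 0.165 to 0.373. With those at 0, 2 and 4 h they correlated by 0.00335 to 0.201, so the ranges overlap. Deviations of same-numbered arrays, taken array by array, correlated by 0.124 to 0.553 and by 0.0244 to 0.326, which also overlap. The main fit had no term for the replicate number, and an alternative fit used it as a block over all times. Alternatives covered limit values, missing values, dye term, centring, scaling, variance, threshold, the replicate block, averaged pairs and arrays left out.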

Additional observations from a re-analysis of the deposited data

Results flagged for a closer look

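Dixon's test for an array far from the other 3 of its time was made for 71 sets of 4 values, and 2 passed; about 1 in 20 pass by chance. Feature GP096G7 had 1.97 on replicate 1 at 4 h, above the other 3 arrays of that time, which ran from 0.98 to 1.14. The median of the negative set called at 10 h was -0.23 on replicate 3 at 8 h, above -0.38 to -0.40 on the other 3 arrays.

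The ratio at 10 h differed from that of another time by the test of the difference itself for 135 features against 0 h, 42 against 2 h, 31 against 4 h and 33 against 22 h. GP005B2 was higher at 10 h than at 0, 2 and 4 h by 2.503, 2.02 and 1.74, and GP096G7 was higher than at 0 h by 2.47.

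Among the limit values, which were left out of the tests, 3 features at 10 h were at a limit on the same side in both dye orientations, all on the positive side, against 0 at 0 h. On the positive side there were 0, 38, 29, 1, 3 and 21 such features at 2, 4, 6, 8, 12 and 22 h. On the negative side there were 17, 0, 0, 35, 1 and 1 at these times. Counts at the upper limit differ between arrays, and their part in these numbers was not tested.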

How the results depend on the processing

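The positive side at 10 h (242 features) moved by over 1.5 times only where the 10 h arrays were fitted alone (68), averaged in pairs (141) or reduced to replicates 3 and 4 (129), and with the sign of all arrays turned, which exchanges the sides (99 and 242). The negative side (99) became 38 with only the arrays at 8, 10 and 12 h, 1 with 10 h alone, 41 at a threshold of 0.01, 177 with the replicate block, 36 with pairs averaged and 27 without both arrays with over 100 limit values. The total of 341 became 220, 69, 214, 514, 177 and 156 in these same settings. Of the 177, 169 were among the 341, as were all of the 214, and with the replicate block all 341 were among the 514. Without 1 replicate the total ran from 214 (without replicate 1) to 309, the positive side from 177 to 220 and the negative side from 37 (without replicate 1) to 95.

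Against 0 h, 135 features became 89 at the threshold of 0.01, 218 with the replicate block, 52 with pairs averaged and 78 without both arrays. Against 2 h, 42 became 69, 22 and 12 with the block, with pairs averaged and without both arrays. Against 4 h, 31 became 15 with arrays scaled, 9 at 0.01, 8 with pairs averaged and 1 without both arrays, and 11 to 24 without 1 replicate (11, 16 and 20 without replicates 1, 2 and 3). Against 22 h, 33 became 9 with arrays scaled, 65 with the block and 20 without both arrays. Against 6 h, 0 became 1 with features on all 4 or all 32 arrays and 5 with the block, and against 8 h, 0 became 1 with limit values kept. The 24 features below 0 h became 53 with the block, 1 with pairs averaged and 12 without both arrays. The block moved no other total by over 1.5 times, and no dye term, centring and a robust variance moved no total by that much. Without 1 replicate the counts lay at 110 to 130 against 0 h, 31 to 38 against 2 h and 24 to 32 against 22 h.

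With limit values kept, the mean correlation of the 10 h arrays went from 0.156 to -0.0812, and the median read for the 100 most positive features from 1.23 to 0.66. It was 1.54 for 50 features and 0.61 for 200. Turning all signs gave -2.48 for GP005B2, -2.47 for GP096G7, 1.403 for GP001B2 and 1.38 for GP136D9. GP005B2 and GP096G7 kept their calls in all other settings that gave a value. GP005B2 has none among features on all 32 arrays. GP001B2 lost its call with 10 h fitted alone, pairs averaged or both arrays left out (adjusted p = 0.181, 0.116 and 0.571), and GP136D9 in these (0.243, 0.138 and 0.662), with the 12 arrays at 8 to 12 h (0.0617) and without replicate 1 (0.0577). Fewer arrays entered several of these fits; otherwise the cause was not tested.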
